A study of Mus musculus with 4 samples.

Results

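A set of 10 genes that carry out or control mitophagy was followed through the RNA-seq counts of a mouse colon cancer cell line. They were Bnip3, Bnip3l, Fundc1, Pink1, Becn1, Sqstm1, Map1lc3a, Map1lc3b, Ulk1 and Optn, and were found by matching the NCBI gene IDs of the table to these symbols. All 10 were present among the 27179 genes of the table, and all 10 passed the filter on low counts that left 13580 genes for testing. The cells were MC38, a colon carcinoma line, grown without or with the cytokine IFN-γ at 20% oxygen (normoxia) or 1.5% oxygen (hypoxia). Each of the 4 conditions (control under normoxia, control under hypoxia, IFN-γ under normoxia and IFN-γ under hypoxia) was represented by 1 library, and therefore no condition had a replicate. The study's methods give 5 ng/mL for 24 h as the IFN-γ treatment of most experiments. The length of the hypoxic culture is not given in the sources used here.

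Mitophagy is the removal of damaged or surplus mitochondria by autophagy. A mitochondrion is tagged either by receptors in its outer membrane, such as BNIP3, BNIP3L (NIX) and FUNDC1, or by ubiquitin chains that are built on its surface once the kinase PINK1 accumulates there and that adaptors such as optineurin (Optn) and p62 (Sqstm1) bind. Receptors and adaptors both carry a short motif that docks on lipid-linked LC3 proteins (Map1lc3a, Map1lc3b) of the growing autophagosome, whose formation is started by the kinase ULK1 and by the lipid kinase complex that holds Beclin 1 (Becn1). Under low oxygen, the hypoxia-inducible factors (HIFs) are stabilized and raise transcription of target genes, and Bnip3 and Bnip3l are textbook HIF targets. IFN-γ acts through JAK kinases.

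The libraries held between 34302971 and 34537939 counts on genes. Both stimuli were visible in genes that report on them, since all 10 hypoxia response genes of a check list were raised by hypoxia, Car9 4.40-fold and Egln3 2.25-fold, and all 8 IFN-γ response genes were raised by IFN-γ, Cd274 4.27-fold. Of these 8 genes, 7 were also called raised by hypoxia, by less, Cd274 1.20-fold. None of the 10 hypoxia response genes was called with IFN-γ. The colon epithelial markers Cdh1 and Cdx2 were at 0 in all libraries, Epcam and Krt18 reached at most 2 counts, and the highest of the 9 on the list, Krt8, had 48 to 90 counts. Of 7 fibroblast or mesenchymal markers, Col1a1, Col1a2, Pdgfrb and Dcn were as low, at 29 to 105 counts, while Pdgfra had 1077 to 1341, Col3a1 2233 to 3238 and Vim 74838 to 81307. The defining epithelial markers of the labelled tissue were thus absent or near 0 at the RNA level. The leukocyte markers Cd3e, Cd8a, Adgre1 and Itgam reached at most 1 count, Ptprc had 2 to 12 and Cd68 had 170 to 236, and no endothelial marker exceeded 50 counts. In a bulk library of this kind, fewer cells of a type and less RNA per cell cannot be told apart.

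The DNA just upstream of the transcription start is shown first for the 3 genes with a promoter sequence that hypoxia raised (Bnip3, Optn and Pink1) and for Sqstm1, which did not pass the test. The windows are 250 bases long, run 5′ to 3′ on the strand of the gene up to the RefSeq start, and come from RefSeq on GRCm38.p6. Capitals mark each match, on either strand, to the core of the HIF binding motif, which is ACGTG or GCGTG (and so CACGT or CACGC where the match is on the opposite strand). Bnip3 lies on the minus strand, with its window at chr7:138909507-138909756, Optn on the minus strand at chr2:5064118-5064367, Pink1 on the minus strand at chr4:138326297-138326546 and Sqstm1 on the minus strand at chr11:50210821-50211070.
Bnip3: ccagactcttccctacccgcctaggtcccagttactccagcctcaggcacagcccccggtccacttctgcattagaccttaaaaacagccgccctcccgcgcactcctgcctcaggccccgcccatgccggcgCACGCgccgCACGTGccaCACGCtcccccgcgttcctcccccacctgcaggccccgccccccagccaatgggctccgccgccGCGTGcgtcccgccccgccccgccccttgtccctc
Optn: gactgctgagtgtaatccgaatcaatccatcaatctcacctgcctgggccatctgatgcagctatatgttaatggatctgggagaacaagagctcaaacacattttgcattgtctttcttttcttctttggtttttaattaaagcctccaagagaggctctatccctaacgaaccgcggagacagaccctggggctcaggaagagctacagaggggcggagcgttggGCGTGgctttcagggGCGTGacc
Pink1: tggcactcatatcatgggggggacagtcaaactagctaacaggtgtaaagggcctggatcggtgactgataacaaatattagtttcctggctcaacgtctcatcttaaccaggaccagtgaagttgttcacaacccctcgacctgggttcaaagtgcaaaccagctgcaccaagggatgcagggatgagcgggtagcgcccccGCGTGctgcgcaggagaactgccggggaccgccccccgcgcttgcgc
Sqstm1: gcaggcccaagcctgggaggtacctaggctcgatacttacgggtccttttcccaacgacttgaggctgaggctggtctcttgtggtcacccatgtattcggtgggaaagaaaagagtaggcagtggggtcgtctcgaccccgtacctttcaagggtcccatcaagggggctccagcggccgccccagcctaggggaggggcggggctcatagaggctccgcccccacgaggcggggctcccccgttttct

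Promoter windows were found for 7 of the 10 genes, and Bnip3l, Becn1 and Map1lc3a had none. The HIF core was present in 5 of these 7 windows and in 38.6% of all 32851 windows of the table. The Bnip3 window held 5 matches, of which 2 lay on opposite strands of the palindrome CACGTG at positions -108 to -103 from the start. Map1lc3b also had 5 matches, all of them GCGTG, while Optn had 2, Pink1 and Ulk1 had 1 each, and Sqstm1 and Fundc1 had none. The Fundc1 window, at chrX:17572008-17572257 on the minus strand, lies inside the gene as GENCODE places it (17556564 to 17572325). The absence of matches there does not describe the DNA upstream of the GENCODE start. Map1lc3b, with as many matches as Bnip3, and Ulk1 did not pass the test for hypoxia, with log2 changes of 0.04 and 0.14. Of all windows, 1.01% held 5 or more matches. ACGTG occurred in 1 of the 7 windows and in 16.6% of all windows, GCGTG in 5 and in 28.2%, and the E box CACGTG, which contains ACGTG on both strands, in 1 and in 6.02%. The longer CLEAR motif of lysosomal genes was in none of the 7 and in 0.240% of all windows. The interferon-stimulated response element (ISRE) was also in none of the 7, against 2.98% of all windows. All motifs were searched on both strands. These matches describe letters in a short window and do not show binding.

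**Figure D1:**
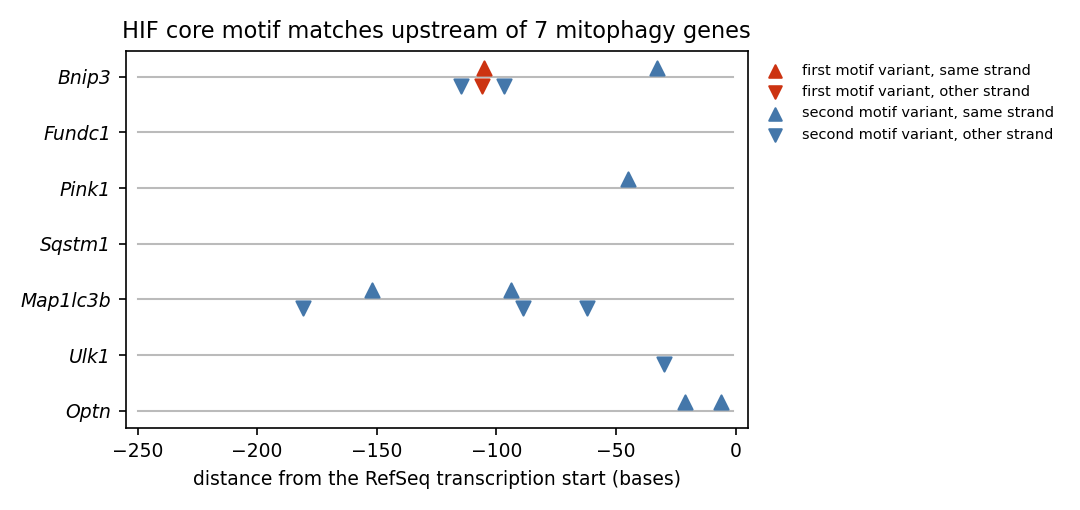
Positions of the HIF core motif in the 250 bases upstream of the RefSeq start of 7 mitophagy genes, with the distance from the start in bases on the x axis and 1 grey line per gene. Red triangles are ACGTG and blue triangles GCGTG, pointing up on the strand of the gene and down on the opposite strand, and Bnip3 and Map1lc3b each hold 5 matches while Fundc1 and Sqstm1 hold none. The Fundc1 window lies inside the gene as GENCODE places it.

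Whether low oxygen changed these genes was tested over all 4 libraries by edgeR (quasi-likelihood, oxygen and IFN-γ as additive terms), at an adjusted p of 0.05. Hypoxia raised 4 of the 10 genes, namely Bnip3, Bnip3l, Optn and Pink1, and lowered none. Among all 13580 genes tested, 15.0% were called in either direction, 8.21% raised and 6.83% lowered. The other 6 genes were not called. The median log2 change of the 10 genes with hypoxia was 0.15, against 0.00 over all genes tested. Without adjustment no further member had a p under 0.05, and DESeq2's Wald test called 3 raised and none lowered. In this model the spread comes from departures from additivity at 1 residual degree of freedom, shared across genes by edgeR. Differences between cultures and any true interaction of both stimuli thus enter it together. In the main fit, genes of like count had nearly the same SE whatever their own departure. Atg5 and Ambra1, averaging 1576 and 1593 counts, both had 0.074. Their hypoxia changes with and without IFN-γ differed by -0.02 and 0.44.

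The mitochondrial receptor genes Bnip3 and Bnip3l had the largest changes of the 10 genes. Bnip3, whose protein spans the outer mitochondrial membrane and also belongs to the BCL2 family of cell death regulators, had 4481 counts in the control library under normoxia, 14535 in the control library under hypoxia, 4459 with IFN-γ under normoxia and 14014 with IFN-γ under hypoxia. Both hypoxic libraries were thus high and both normoxic libraries low, and the 2 libraries at each oxygen level were close to each other. Its fitted change with hypoxia was 3.20-fold (log2 change 1.68, SE 0.06, adjusted p = 5.21e-190 by edgeR). With another normalization or filter in the same edgeR model, the adjusted p lay between 1.37e-17 and 3.89e-13 at an SE of about 0.05. The size of the p-value thus depended strongly on the processing, while the log2 change did not. Taken pair by pair as a ratio of library-size normalized counts (CPM), the log2 change was 1.70 without IFN-γ (95% Clopper-Pearson interval 1.65 to 1.75) and 1.65 with IFN-γ (1.60 to 1.70). These intervals, like all others given for single pairs, cover counting error only. When the 11489 genes averaging 50 or more counts were ordered, Bnip3 ranked 8 by its log2 change with hypoxia.

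Bnip3l encodes the closest relative of BNIP3, a receptor known for clearing mitochondria from maturing red blood cells. It had 3688 counts in the control library under normoxia, 9440 in the control library under hypoxia, 3619 with IFN-γ under normoxia and 8704 with IFN-γ under hypoxia. The hypoxic libraries again lay above the normoxic ones. Its fitted change was 2.49-fold (log2 change 1.31, SE 0.06, adjusted p = 1.95e-108 by edgeR), and it ranked 24 among the same 11489 genes. With another normalization or filter in the same edgeR model, its adjusted p lay between 1.53e-15 and 8.9e-12. The pairs gave log2 changes of 1.36 (1.30 to 1.41) without IFN-γ and 1.27 (1.21 to 1.32) with IFN-γ.

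Reads of these 2 genes can also match copies elsewhere in the genome, and how the counting treated reads with several matches is not given in the sources used here. On the mouse GENCODE annotation, 23.7% of the 31-base words of the Bnip3l transcripts also occur in other genes, mainly in the pseudogene Bnip3l-ps. That pseudogene has a row of its own, with 305 counts in the control library under normoxia, 726 in the control library under hypoxia, 230 with IFN-γ under normoxia and 681 with IFN-γ under hypoxia, which is 6.36% to 8.27% of the Bnip3l counts. Its high libraries were those in which Bnip3l was high, and its fitted change with hypoxia was 2.65-fold (log2 change 1.40, SE 0.11, adjusted p = 5.25e-34 by edgeR). Summed with it, an alternative added after the data were seen, Bnip3l changed by 1.35 without and 1.29 with IFN-γ on the log2 scale. For Bnip3, 57.0% of the words are shared, most of them with AC160336.1, a noncoding gene that has no row in the table. Whether reads of Bnip3 were lost to or gained from such copies was not tested, and its level is uncertain for this reason.

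Fundc1, the third receptor in the outer membrane, had 963 and 931 counts in the normoxic libraries without and with IFN-γ, and 1079 and 1030 in the hypoxic ones. Both hypoxic libraries were slightly higher, but the fitted log2 change of 0.16 (SE 0.08, adjusted p = 0.201 by edgeR) did not pass the test. The single pairs gave 0.17 (0.04 to 0.29) and 0.15 (0.02 to 0.28), intervals that lie above 0 on counting error alone.

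Pink1 and Optn, which act on the ubiquitin route, changed by less. Pink1, the kinase that accumulates on depolarized mitochondria, had 564 counts in the control library under normoxia, 749 in the control library under hypoxia, 524 with IFN-γ under normoxia and 679 with IFN-γ under hypoxia. Both hypoxic libraries lay above both normoxic ones, as they also did for Fundc1, which was not called. The share of all genes that separate in this way was not counted. Pink1 was called raised, with a fitted change of 1.31-fold (log2 change 0.39, SE 0.10, adjusted p = 8.1e-04 by edgeR). This call was lost with DESeq2's Wald test (adjusted p = 0.175) and when IFN-γ was left out of the edgeR model. Optn, an adaptor that links ubiquitin to LC3, had 823 counts in the control library under normoxia, 1155 in the control library under hypoxia, 980 with IFN-γ under normoxia and 1386 with IFN-γ under hypoxia. Here the hypoxic libraries were higher than the normoxic ones, and within each oxygen level the IFN-γ library was the higher of the pair. Hypoxia raised Optn 1.41-fold (log2 change 0.50, SE 0.08, adjusted p = 3.9e-08 by edgeR), a call lost only when IFN-γ was left out of the edgeR model (adjusted p = 0.163).

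The remaining members did not pass the test for hypoxia. Sqstm1, the general autophagy adaptor p62, had 25744, 27429, 25132 and 25139 counts in the control libraries under normoxia and hypoxia and the IFN-γ libraries under normoxia and hypoxia, in this order. Its libraries at the 2 oxygen levels differed little, with a log2 change of 0.05 (SE 0.05, adjusted p = 0.58 by edgeR). Map1lc3b, the LC3 form most used as an autophagosome marker, had 4446, 4575, 4158 and 4264 counts in the same order, and a log2 change of 0.04 (SE 0.06). Its paralog Map1lc3a had 364, 407, 324 and 327 counts, and a log2 change of 0.09 (SE 0.12). For both LC3 genes the difference between oxygen levels was smaller than its standard error. The initiating kinase Ulk1 had 1173, 1196, 1126 and 1328 counts, and Becn1 had 3485, 3567, 3467 and 3213. In both, the library with IFN-γ under hypoxia stood apart from the other 3, above them for Ulk1 and below them for Becn1. Their fitted log2 changes with hypoxia were 0.14 (SE 0.08, adjusted p = 0.263 by edgeR) and -0.04 (SE 0.06, adjusted p = 0.777 by edgeR). Becn1 shares 43.9% of its exon bases with Cntd1 on the opposite strand and Sqstm1 17.3% with Mrnip. The strand setting of the counting is not given in the sources used here, and those rows held 25 to 54 and 331 to 419 counts.

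**Figure D2:**
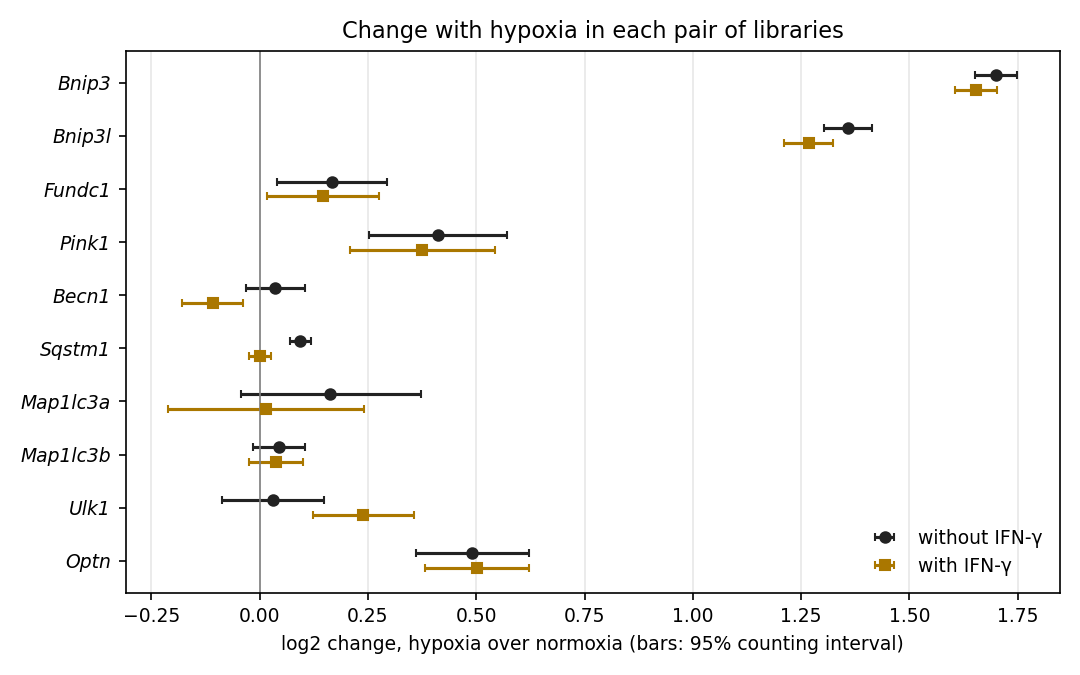
Log2 change with hypoxia (x axis) of each of the 10 genes (y axis) in the pair of libraries without IFN-γ (circles) and the pair with IFN-γ (squares), with bars for the 95% Clopper-Pearson interval of the 2 counts. Bnip3 and Bnip3l lie at 1.27 or more in both pairs, and the other 8 genes between -0.11 and 0.50.

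Levels were set per kilobase of exon as a rough basis for comparing genes. The length was that of all annotated exons of a gene joined, for example 7.065 kb for Becn1 and 7.517 kb for Map1lc3b. This can exceed the length of the transcript expressed, so the order depends in part on the annotation. On this scale Sqstm1 was the most abundant member at 221.5 CPM per kilobase in the control library under normoxia. It was followed by Bnip3 at 57.1, Bnip3l at 27.6, Map1lc3b at 17.1, Becn1 at 14.3 and Fundc1 at 11.8, and then by Map1lc3a at 8.90, Optn at 6.33, Pink1 at 6.09 and Ulk1 at 5.22. With 1 library per condition, whether neighbours in this order differ beyond the spread of replicates cannot be said. In the control library under hypoxia Bnip3 reached 185.7 CPM per kilobase, near the 236.5 of Sqstm1, and Bnip3l reached 70.8. Optn moved past Map1lc3a with both stimuli together, at 10.8 against 8.08. The summed CPM of Bnip3 and Bnip3l went from 235.9 to 693.7 with hypoxia in the control libraries and from 235.6 to 663.2 in the IFN-γ libraries. The summed CPM of the other 8 genes went from 1085 to 1162 and from 1069 to 1091.

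**Figure D3:**
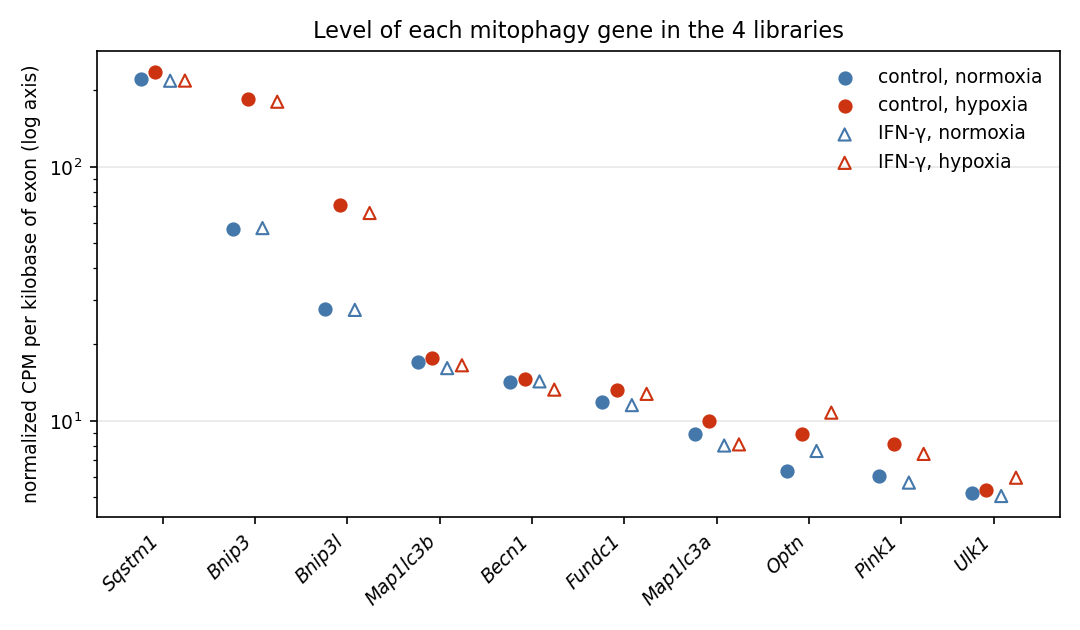
Level of each of the 10 genes as normalized CPM per kilobase of exon (all annotated exons of the gene joined, log axis), in order of the level in the control library under normoxia. Circles are control and triangles IFN-γ libraries, blue normoxia and red hypoxia, with 1 point per library, and the red points of Bnip3 and Bnip3l stand apart from the blue ones.

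The second question was whether IFN-γ changed the same genes. In the same edgeR model IFN-γ raised 1 of the 10, Optn, and lowered none, while 5.86% of all genes tested were called in either direction, 4.76% raised and 1.10% lowered. The median log2 change of the 10 genes was -0.06, against -0.01 over all genes. Without adjustment Optn was also the only member with a p under 0.05, and DESeq2's Wald test called none in either direction. Optn was 1.21-fold higher with IFN-γ (log2 change 0.27, SE 0.08, adjusted p = 0.016 by edgeR), by 0.27 (0.13 to 0.40) under normoxia and 0.28 (0.16 to 0.39) under hypoxia. The log2 change was also 0.27 with DESeq2's Wald test and when oxygen was left out of the edgeR model, but with larger standard errors of 0.13 and 0.21 the adjusted p was 0.754 and 0.999, and the call was lost in both. With total counts or without a filter in edgeR, the adjusted p was 0.0498 and 0.0485, just under the threshold. In the library with both stimuli Optn was 1.70-fold above the control library under normoxia.

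For Bnip3 the log2 change with IFN-γ was -0.02 (SE 0.05, adjusted p = 0.961 by edgeR), with single-pair values of 0.01 (-0.05 to 0.07) under normoxia and -0.04 (-0.07 to -0.01) under hypoxia. Bnip3l changed by -0.06 (SE 0.06, adjusted p = 0.778 by edgeR), and by -0.01 (-0.08 to 0.05) and -0.10 (-0.15 to -0.06) in the pairs. Neither receptor gene thus passed the test. The counting intervals reached no further than about 0.15 from 0 in either pair, but they set no bound on the change with IFN-γ between cultures. The largest of the values that did not pass was that of Map1lc3a, at -0.23 (SE 0.12, adjusted p = 0.396 by edgeR). Across the 10 genes, 3 single-pair values were above 0 under normoxia and 2 under hypoxia, against 50.2% and 45.5% of all genes tested. Under hypoxia 6 of the 10 counting intervals lay wholly below 0, those of Bnip3, Bnip3l, Becn1, Sqstm1, Map1lc3a and Map1lc3b, as did those of 20.7% of all genes tested and 24.5% of the genes that had 100 or more counts in each library. Under normoxia only that of Map1lc3b did, against 16.7% of all genes tested. These intervals hold no spread between cultures, and none of the 10 genes was called lowered by IFN-γ.

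**Figure D4:**
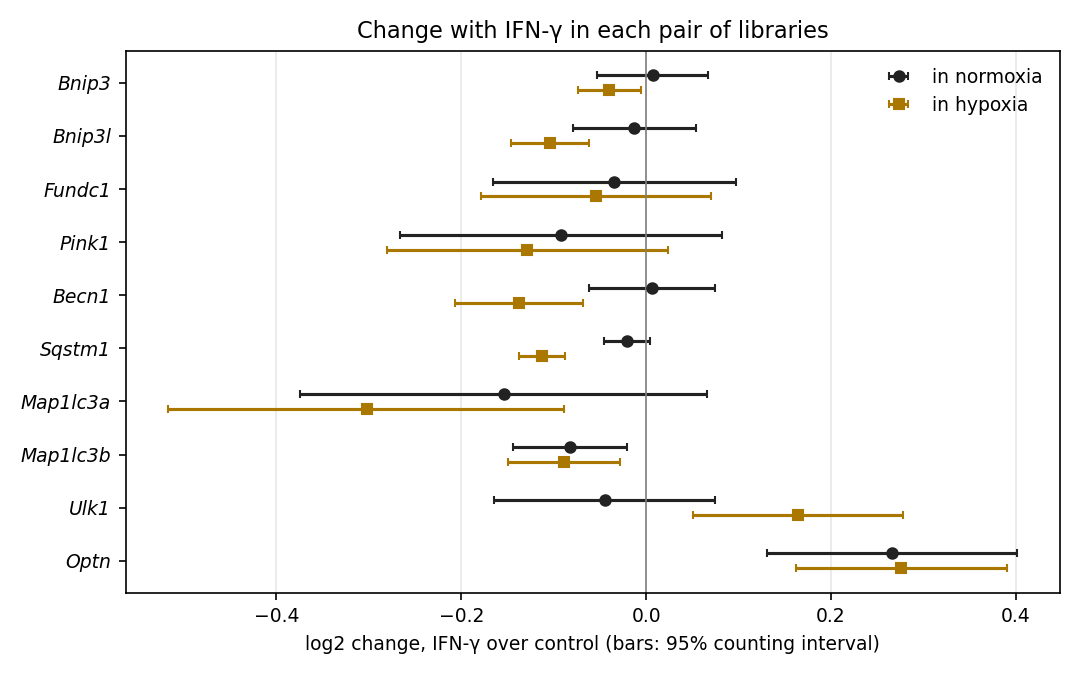
Log2 change with IFN-γ (x axis) of each of the 10 genes (y axis) in the pair of libraries under normoxia (circles) and the pair under hypoxia (squares), with bars for the 95% Clopper-Pearson interval of the 2 counts. Optn lies at 0.27 and 0.28, and the other 9 genes between -0.30 and 0.16.

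Whether IFN-γ altered the response to hypoxia could not be tested, because 1 library per condition leaves no degrees of freedom for an interaction. The difference between the hypoxia changes with and without IFN-γ was therefore set beside its counting interval and beside the 10443 genes that had 100 or more counts in each of the 4 libraries. For Bnip3 this difference was -0.05 on the log2 scale (-0.12 to 0.02) and for Bnip3l -0.09 (-0.17 to -0.01). Ulk1 had the largest positive value at 0.21 (0.05 to 0.37), and Becn1 had -0.14 (-0.24 to -0.05) and Sqstm1 -0.09 (-0.13 to -0.06). These 4 of 10 intervals that exclude 0 compare with 34.5% of the 10443 genes. None of the members lay outside the central 95% of those genes, which ran from -0.36 to 0.40. That range was not matched on count level, and counting error is larger for genes with fewer counts. Map1lc3a, at 324 to 407 counts, had a counting interval of -0.45 to 0.15. Sqstm1, at 25132 to 27429 counts, had the -0.13 to -0.06 given above. For members with high counts the range therefore cannot show whether a difference stood out.

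The genes whose pattern over the 4 libraries was most like that of the receptor genes were found by the Euclidean distance over the 3 log2 changes from the control library under normoxia, which all share that library. Nearest to Bnip3 were Bdh2, Atp7b, Selenbp1, Egln1 and Prelid2. Bdh2 had 94, 286, 92 and 289 counts in the order used above and Egln1, the oxygen-sensing prolyl hydroxylase PHD2, had 3690, 9663, 3625 and 9329. Selenbp1 shares 61.1% of its 31-base words with other genes, mainly its paralog Selenbp2, and its values are uncertain. Nearest to Bnip3l were Pdk1, Fam162a, Ak4, P4ha2 and Egln1. Pdk1, which restrains entry of pyruvate into mitochondrial oxidation, had 4176, 10497, 4127 and 9636 counts, and P4ha2, a collagen prolyl hydroxylase subunit, had 3882, 10005, 3638 and 9207. Each of these genes was high in both hypoxic libraries and low in both normoxic ones, which follows from how they were chosen. Atp7b had only 35 to 117 counts. The distances to the nearest gene were 0.105 for Bnip3 and 0.043 for Bnip3l.

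The rest of the pathway was covered by 6 lists with 103 genes, of which 102 were tested. Hypoxia raised 12 of the 102 and lowered 7, together 18.6% against the 15.0% of all genes, with a median log2 change of 0.03. Of all genes, 8.21% were raised and 6.83% lowered, and at these shares a short list may hold few called genes or none. The 12 raised genes remained called in all 6 alternative fits in 4 cases (Vdac1, Ddit4, Vamp8 and Foxo3), and the 7 lowered ones in 1 (Mtfp1). Among other receptors and adaptors, 2 of 10 were raised and 1 lowered. These were Calcoco1 (log2 change 0.38) and Nbr1 (0.21), both autophagy adaptors, and Phb2 (-0.21), an inner membrane receptor. Among the genes of the PINK1 route and its ubiquitin enzymes, 1 of 20 was raised, Vdac1 (0.36), a channel of the outer membrane, and 2 were lowered, the intermembrane protease Htra2 (-0.24) and the phosphatase Pgam5 (-0.20).

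Of the 15 genes for initiation and the PI3K complexes, hypoxia raised 3 and lowered 2, where 8.21% of all genes were raised and 6.83% lowered. Ddit4 (REDD1), an inhibitor of mTORC1, had 5954 counts in the control library under normoxia, 12581 in the control library under hypoxia, 5551 with IFN-γ under normoxia and 10677 with IFN-γ under hypoxia. It was 2.02-fold higher with hypoxia (log2 change 1.01, SE 0.06, adjusted p = 3.15e-72 by edgeR), the only gene of the 6 lists with a called change of 1 or more on the log2 scale. Ulk2 (0.35), the paralog of Ulk1, and Rubcn (0.19), an inhibitor of autophagosome maturation, were also raised, and Uvrag (-0.20) and Rptor (-0.18) were lowered, Rptor in none of the 6 alternative fits. Among 23 genes of elongation and LC3 conjugation, 4 were raised and none lowered, where 1 was lowered at an unadjusted p under 0.05 and none by DESeq2's Wald test. The 4 were Wipi1 (0.39), Atg9a (0.36), the LC3 relative Gabarap (0.30) and Atg2b (0.20). Among 18 genes of fusion, the lysosome and their transcription factors, 2 were raised, the SNARE gene Vamp8 (0.40) and the transcription factor Foxo3 (0.62), with 510, 828, 525 and 758 counts. Among 16 genes of mitochondrial fission, fusion and biogenesis none was raised, also not at an unadjusted p under 0.05 or by DESeq2's Wald test. With 8.21% of all genes raised, a list of this length may hold none. The 2 lowered were the fission gene Mtfp1 (-0.49), with 1396, 1045, 1414 and 961 counts, and the transport gene Rhot2 (-0.29). Atg9a, Htra2, Pgam5 and Rhot2 share between 27.9% and 58.8% of their 31-base words with other annotated genes, mostly overlapping ones, and are uncertain.

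IFN-γ raised 3 of the 102 genes and lowered none, together 2.94% against 5.86% of all genes. At an unadjusted p under 0.05 the counts were 7 and 4, and DESeq2's Wald test called 1 and 0. The raised genes were Marchf5 (log2 change 0.37, adjusted p = 3.63e-07 by edgeR), a ubiquitin ligase of the outer mitochondrial membrane, Tbk1 (0.24), the kinase that phosphorylates optineurin, and Lamp2 (0.17), a lysosomal membrane protein. Marchf5 was called in 5 of the 6 alternative fits, Tbk1 in 2 and Lamp2 in 0. Marchf5 held 2732 counts under normoxia and 2923 under hypoxia without IFN-γ, and with it 3487 and 3734. The IFN-γ libraries thus lay above the controls.

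**Figure D5:**
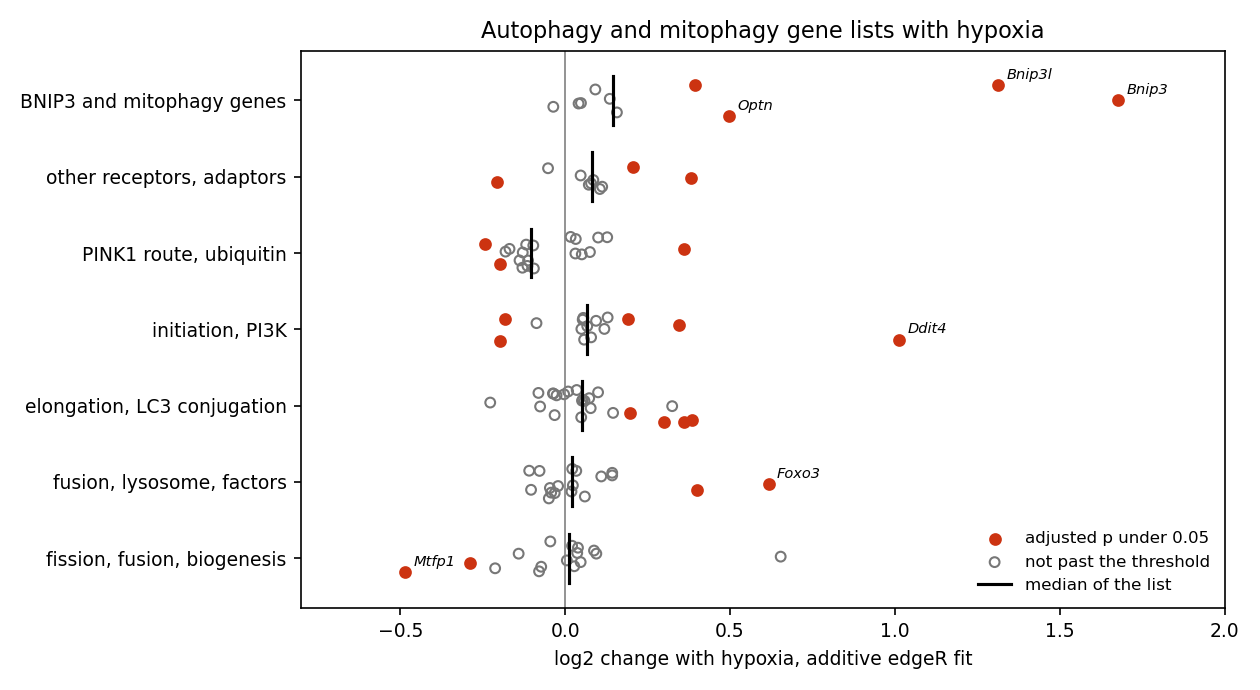
Log2 change with hypoxia from the additive edgeR fit (x axis) of the 10 genes and of 6 lists of autophagy and mitophagy genes (y axis), with 1 point per gene tested, red where the adjusted p was under 0.05, and a black line at each list's median. Bnip3, Bnip3l and Ddit4 are the genes with a change of 1 or more.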

How the data were processed

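The authors deposited whole-number read counts per gene for 4 MC38 libraries in 1 table, without normalization. Per the labels and the paper, the libraries were strand-specific and poly-A selected, sequenced on a DNBSEQ instrument and aligned with HISAT2. The submitters' processing notes name featureCounts and mm10 without versions. The strand setting, the annotation and the handling of reads with several matches are not given in the sources used here. Of 27179 gene IDs, 25275 were matched to a symbol with a RefSeq table of GRCm38.p6.

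Libraries were grouped by their labels. The counts were tested with edgeR 4.0.16 in R 4.3.3 (quasi-likelihood test, TMM normalization, edgeR's filter at its default minimum of 10 counts, additive model of oxygen and IFN-γ, Benjamini-Hochberg adjustment over all genes tested, threshold 0.05). The p-values test the oxygen or the IFN-γ term. The spread behind them comes from departures from additivity at 1 residual degree of freedom and not from replicate cultures. For single pairs, 0.5 was added to each count, the log2 ratio was taken after TMM scaling to CPM (the counts scaled to a common library size), and the 95% interval is that of Clopper and Pearson. The interval of a difference between 2 such changes comes from Poisson counting error. Counts of 3 or fewer were taken as the floor, about 0.0876 CPM. Some items are not reported here. On simulated counts for the hypoxia effect over 13580 genes, the edgeR fit recovered 99 of 100 genes changed by 1 and 93 of 100 changed by 0.6 on the log2 scale, and 11 of 203 calls were unchanged genes. These counts were drawn with the same spread for all genes, taken from the fit itself. They held no change with IFN-γ and no interaction. The simulation thus shows that the fit works under its own assumptions, and it gives no error rate for the real libraries.

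The 10 genes and all lists were chosen with earlier results of these data known. From each other list up to 3 raised and 3 lowered genes were named per stimulus, those with the largest called log2 change, an equal sign in the 2 pairs and 50 or more counts on average. Atg2b, the remaining raised gene of its list, was named after its values were seen. The 5 genes nearest to Bnip3 and to Bnip3l were named by distance, and Car9, Egln3 and Cd274 from the check lists. Exon lengths (all annotated exons of a gene joined) and shared 31-base words come from GENCODE vM21 and promoters from RefSeq. The alternatives were DESeq2's size factors or total counts in edgeR, the Wald test of DESeq2 1.42.0, no filter or at least 10 counts in every library, 2 libraries against 2 without the other stimulus, each pair alone, and 5 counts added.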

Additional observations from a re-analysis of the deposited data

Results flagged for a closer look

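In 5 of the 102 tested genes of the pathway lists, the changes with 1 stimulus had opposite signs in the 2 pairs of libraries, with both counting intervals off 0. The difference was not tested in any of them, since there was 1 library per condition. The share of all tested genes that meet this rule was not counted. Whether 5 genes are more than any list of this length would hold therefore cannot be said. The counting intervals hold no spread between cultures. With hypoxia, Wdfy3 changed by -0.11 without and 0.28 with IFN-γ on the log2 scale, a difference of 0.38, and Ambra1 by -0.31 and 0.13, a difference of 0.44. Atg3 went the other way, with 0.09 without and -0.10 with IFN-γ, a difference of -0.19. With IFN-γ, Ambra1 changed by -0.28 under normoxia and 0.16 under hypoxia, which is the same difference of 0.44. Atg9a changed by -0.20 and 0.07 with IFN-γ, a difference of 0.27, and Dnm1l by 0.08 and -0.06, a difference of -0.15. Over all genes that had 100 or more counts in each library, the central 95% of this difference ran from -0.36 to 0.40. Only the values of Ambra1 lay outside this range, which was not matched on count level. None of the 10 mitophagy genes met this rule.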

How the results depend on the processing

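Bnip3 and Bnip3l were called raised by hypoxia in all 6 alternative fits (highest adjusted p = 0.000842 and 0.00152), and the direction of the hypoxia change of each of the 10 genes was the same in all 6. The size of the adjusted p varied widely, for Bnip3 from 7.64e-130 with DESeq2's Wald test to 0.000842 with edgeR without IFN-γ in the model. Very small adjusted p-values, also those of Bnip3l-ps and Ddit4, are therefore best read as calls only. Without the other stimulus in the model (2 libraries against 2, edgeR), members raised by hypoxia fell to 2 and members raised by IFN-γ to 0. The latter was also 0 with DESeq2's Wald test. Over all genes, hypoxia raised 150 and lowered 26 without the other stimulus and 360 and 203 with DESeq2's Wald test, against 1115 and 927. IFN-γ raised 239 and 353 in these fits, against 647. Against 149, IFN-γ lowered 99 with DESeq2's size factors, 71 without a filter, 74 with at least 10 counts in every library, 3 without oxygen in the model and 16 with DESeq2's Wald test. The cause of these shifts was not tested. Pair by pair, Becn1 changed with hypoxia by 0.04 and -0.11 and Ulk1 by 0.03 and 0.24, without and with IFN-γ. With 1 library per condition no replicate could be left out.
No paired analysis was possible because, with 1 library per condition, there were no replicate numbers to block on. The additive model already compares libraries at equal levels of the other stimulus, and the fit of 2 libraries against 2 is the one without that term. Map1lc3a, with 324 to 407 counts, had the widest counting intervals of the 10 genes.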
